A study of Homo sapiens with 6 samples.

Results

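The SLC25 family holds the mitochondrial carriers, and its members were taken as the rows of the deposited count table whose symbol is SLC25A followed by a number, which gave 48 of 26410 rows. The RNA came from Kasumi-1, an established line of human acute myeloid leukaemia cells, in 3 control libraries and 3 libraries with a hairpin against PHF19 (shPHF19), a Polycomb-like protein that binds Polycomb repressive complex 2. The PHF19 hairpin was delivered in a lentiviral vector with GFP and puromycin resistance, and the controls received a scrambled hairpin per the protocol, although they carry WT in their treatment label. In both groups puromycin at 2 µg/ml was added 48 hours after transduction and kept for at least 24 hours. How many PHF19 hairpins there were, and their sequence, was not given in the sources used here. Nothing in the labels ties the replicates to separate cultures, and p-values therefore measure only how these libraries spread, which may be technical variation.

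Each carrier of this family is folded from repeated units of paired transmembrane helices around a central binding site and opens in turn to the intermembrane space and to the matrix. Through this one family the inner membrane passes ADP and ATP, phosphate, di- and tricarboxylates, amino acids, nucleotides, coenzymes, iron and glutathione, so its members set which metabolic steps can be shared between matrix and cytosol. A few members sit in other membranes, such as SLC25A17 in peroxisomes and SLC25A46 in the outer mitochondrial membrane. In blood cells the family is known for SLC25A37 and SLC25A38, which serve iron and glycine supply for haem synthesis in red cell precursors.

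The libraries held 14229878 to 16615143 counts, at which 3 counts correspond to 0.177 to 0.223 CPM. CPM are counts relative to library size, scaled by TMM factors that were 1.06 to 1.08 in the control libraries and 0.919 to 0.945 in the shPHF19 libraries. PHF19 was at 168, 199 and 189 CPM in the control libraries and at 41.1, 36.9 and 33.0 CPM in the shPHF19 libraries. PHF19 fell by 2.32 on the log2 scale (SE 0.0975, edgeR adjusted p = 3.55e-25). Of 6 myeloblast markers, 4 rose and 1 fell, where 29.4% of all genes tested rose and 30.9% fell. Their summed level was 7848 to 8152 CPM in the control and 12601 to 13372 CPM in the shPHF19 libraries, most of it MPO. The marker that fell was RUNX1T1 (log2 fold change -0.37, edgeR adjusted p = 1.92e-04). KIT, at means of 2939 CPM in the control and 3291 CPM in the shPHF19 libraries, did not pass the threshold of 0.05 (edgeR adjusted p = 0.0752). Summed levels of the other marker lists were 1.41 to 3.10 CPM for 5 erythroid genes, 1.81 to 3.03 CPM for 5 fibroblast genes and 76.0 to 88.8 CPM for 5 B cell genes over all 6 libraries. Those of 5 T cell genes were 38.3 to 43.8 and 50.3 to 54.6 CPM in control and shPHF19 libraries, mostly CD3D, whereas CD3E and CD8A fell by 0.91 and 0.96 (edgeR adjusted p = 0.0229 and 0.00789). Those of 5 epithelial genes were 54.2 to 70.2 and 82.3 to 97.6 CPM, mostly EPCAM. The part of these marker differences in the results on carriers was not tested, and in bulk RNA fewer cells of a kind and less RNA per cell cannot be told apart.

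Silencing of PHF19 was accompanied by higher levels of more carriers than it was by lower ones. Of the 48 members, 41 passed the filter on low counts and were tested, 18 rose, 5 fell and 18 did not pass the threshold (edgeR quasi-likelihood test, Benjamini-Hochberg adjusted p below 0.05 over all 13014 genes tested). The background was high in this comparison, since 60.2% of all genes tested were called, 29.4% as higher and 30.9% as lower, against 56.1%, 43.9% and 12.2% of the tested carriers. The median log2 fold change was 0.14 over the tested carriers (-0.07 when libraries were scaled by total counts alone) and -0.03 over all genes tested, and the median absolute change was 0.43 and 0.45. At least 2-fold rises were seen for 3 carriers, among them SLC25A10 and SLC25A1, where the background is 5.72%, and no carrier fell 2-fold, where it is 10.9%. In 18 members all 3 shPHF19 libraries lay above all 3 controls, in 7 all lay below, and in 16 the groups overlapped. Over all genes tested 63.5% did not overlap, 30.9% being higher and 32.6% lower.

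**Figure D1:**
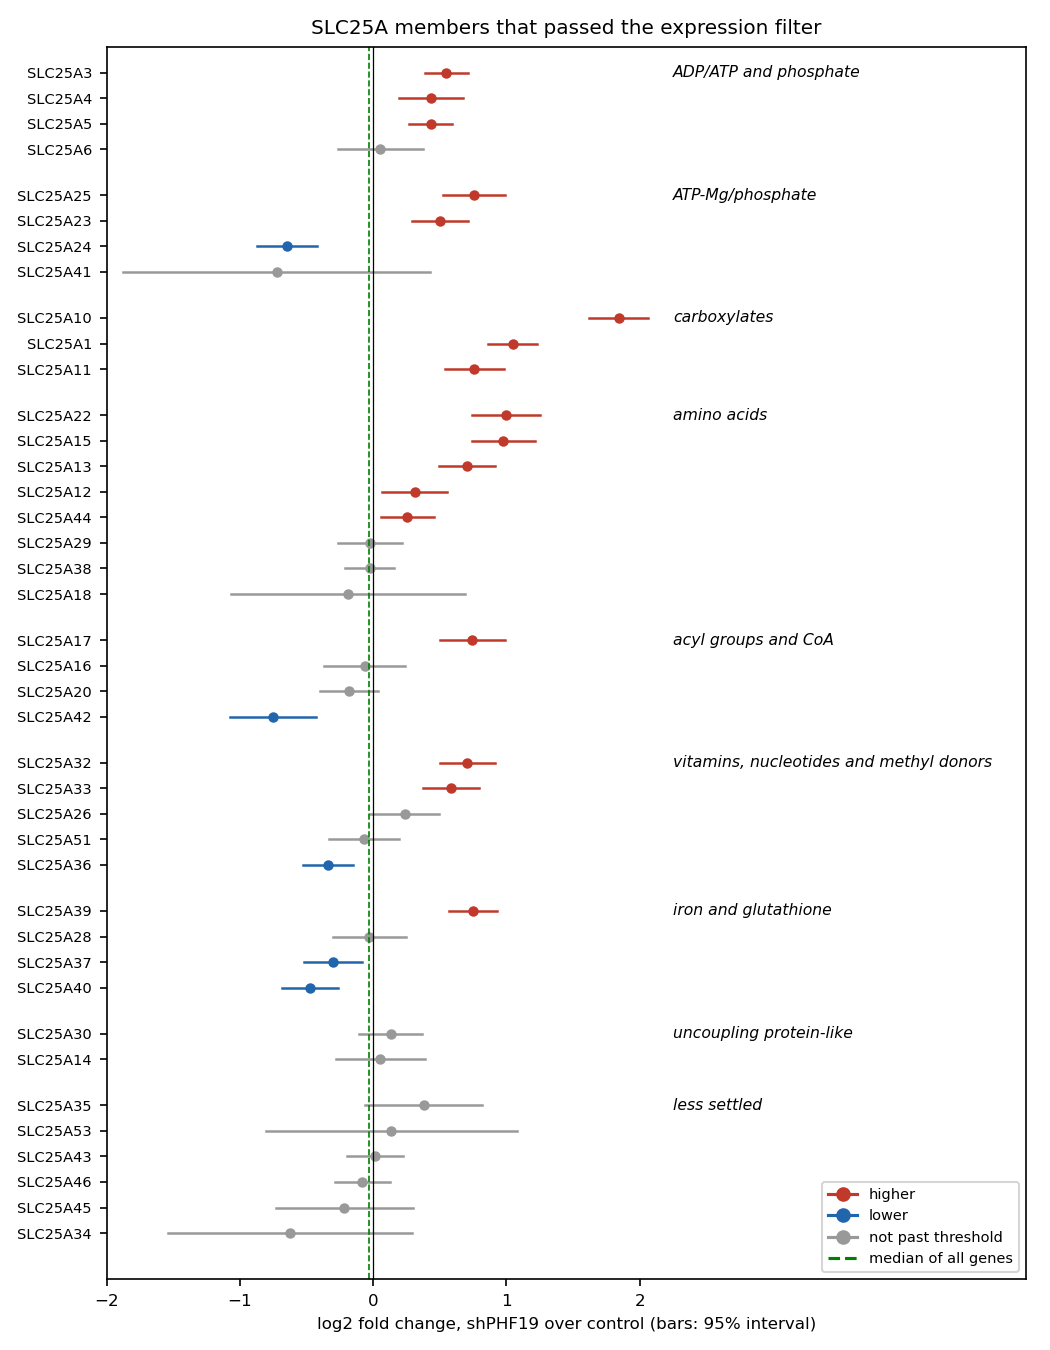
Log2 fold change (shPHF19 over control) with its 95% interval for 40 of the tested carriers, grouped by what they carry, coloured by call, with the median of all genes tested as a dashed line. The 3 tested carboxylate carriers all lie at 0.76 or above. The glutathione carriers lie on both sides of 0, and the iron carriers SLC25A37 and SLC25A28 at -0.30 and -0.03.

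The share of rises depends on the scaling. With library totals in place of TMM factors the median of all genes moved by -0.21 and that of the carriers became -0.07, with 15 carriers higher and 8 lower, where the background became 19.9% higher and 43.2% lower. The share of rises among the carriers called was 78.3% with TMM and 65.2% with library totals, against 48.8% and 31.5% over all genes called. With upper-quartile factors these shares were 72.7% and 40.0%, and the median of all genes moved by -0.10. The median of the carriers minus that of all genes was 0.17 with each of these 3 scalings. A change of scaling factors shifts all genes by nearly the same amount, so this difference could hardly change between them. Over the other alternatives it ranged from 0.105 (without shPHF19 replicate 3) to 0.336 (every gene of at least 1 count tested).

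Summed over all 48 members the family stood at 2486 ± 81.9 CPM (SD, n = 3) in the control and 3306 ± 90.4 CPM (SD, n = 3) in the shPHF19 libraries, a ratio of 1.33, which was 1.15 with library totals. As a share of all counts it was 0.267% ± 0.00623 (SD, n = 3) and 0.308% ± 0.00423 (SD, n = 3). SLC25A3 and SLC25A5 alone made up 45.7% of the family's counts in the controls and 48.8% in the shPHF19 libraries. The 16 other members that rose went from 599 ± 16.7 to 1032 ± 54.4 CPM (SD, n = 3 each), and the 5 that fell from 340.3 ± 33.7 to 254 ± 24.4 CPM. The 18 that did not pass the threshold summed to 410.3 ± 11.0 CPM in the control and 407 ± 5.30 CPM in the shPHF19 libraries. These members were split by their calls in the same libraries, so the direction of the called blocks was fixed by that choice.

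**Figure D2:**
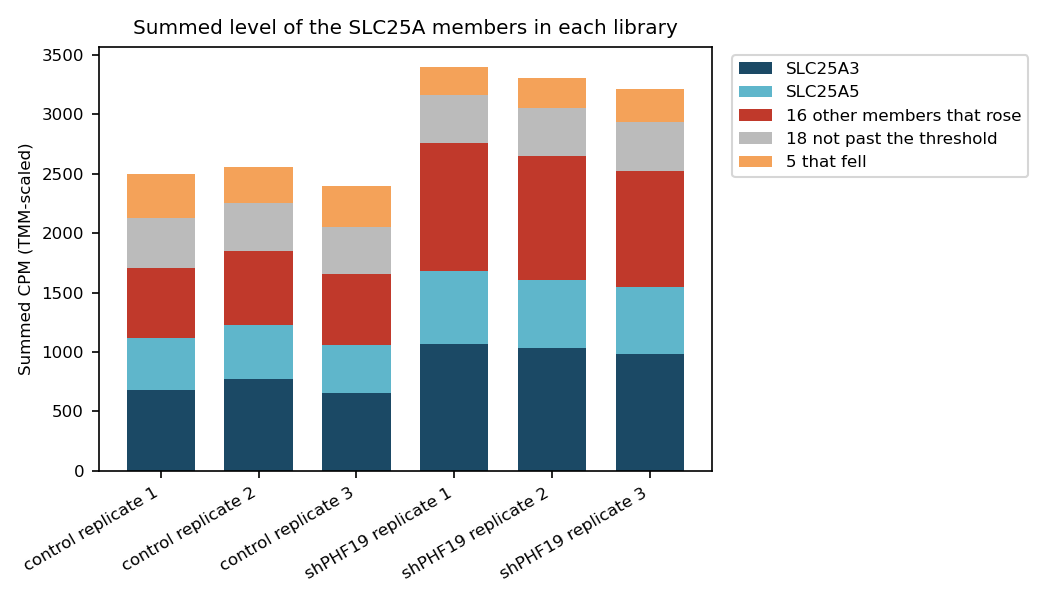
Summed TMM-scaled CPM of the SLC25A members in each of the 6 libraries, split into SLC25A3, SLC25A5, the 16 other members that rose, the 18 not past the threshold and the 5 that fell. Every shPHF19 bar is taller than every control bar, and the blocks of SLC25A3, SLC25A5 and the other members that rose are the ones that are larger. The split follows the calls made on these same libraries, which fixes the direction of the called blocks.

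The stretches upstream of 3 genes are shown for members that differ in response. SLC25A42, a coenzyme A carrier, had the largest fall among members called, and SLC25A33 and SLC25A36, related carriers of pyrimidine nucleotides, moved in opposite directions. The 250 bases before each start in RefSeq (GRCh38.p14) lie at chr19:19063744-19063993 for SLC25A42, chr1:9539215-9539464 for SLC25A33 and chr3:140941586-140941835 for SLC25A36, all on the plus strand. Capitals mark matches, on either strand, to CACGTG (E-box), TGACGTCA (CRE), CCGGAAGT (ETS), CGCATGCG (NRF1) or CCAAT.
SLC25A42: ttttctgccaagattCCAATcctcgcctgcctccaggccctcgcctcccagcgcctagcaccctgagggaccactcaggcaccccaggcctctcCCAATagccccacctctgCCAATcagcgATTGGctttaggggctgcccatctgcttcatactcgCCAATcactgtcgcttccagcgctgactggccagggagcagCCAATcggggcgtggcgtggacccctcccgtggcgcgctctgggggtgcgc
SLC25A33: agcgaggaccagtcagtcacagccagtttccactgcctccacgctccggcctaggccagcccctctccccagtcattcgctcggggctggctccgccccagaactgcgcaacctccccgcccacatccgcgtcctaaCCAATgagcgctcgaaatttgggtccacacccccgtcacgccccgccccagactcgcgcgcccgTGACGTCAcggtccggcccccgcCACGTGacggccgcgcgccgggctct
SLC25A36: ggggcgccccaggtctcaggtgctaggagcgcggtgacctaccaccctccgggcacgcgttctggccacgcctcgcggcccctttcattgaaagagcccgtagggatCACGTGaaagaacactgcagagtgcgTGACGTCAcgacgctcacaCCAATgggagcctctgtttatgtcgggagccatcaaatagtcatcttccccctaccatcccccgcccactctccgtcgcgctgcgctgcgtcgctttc
The window of SLC25A42 holds CCAAT and its reverse ATTGG only. The windows of SLC25A33, which rose, and SLC25A36, which fell, both hold an E-box, a CRE and a CCAAT.

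Windows were matched for 40 members. Some of them, such as SLC25A31, were not tested, so the shares of tested symbols given beside them are over an unlike set. The E-box letters were in those of 8 members (20.0%), against 7.74% of all symbols with a window and 11.4% of the tested ones. The 8 were SLC25A13 and SLC25A33, which rose, SLC25A36, which fell, SLC25A26, SLC25A38, SLC25A46 and SLC25A51, which did not pass the threshold, and SLC25A31, which was not tested. The CRE letters were in 3 members (7.5%), SLC25A25, SLC25A33 and SLC25A36, against 2.04% of all and 3.43% of tested symbols. The ETS letters were in 4 (10.0%), SLC25A17, SLC25A24, SLC25A26 and SLC25A46, against 4.14% and 8.17%, and the NRF1 letters in 0, against 2.14% and 4.01%. CCAAT was in 20 (50.0%), against 37.0% and 41.4%. Of the members with a window, 10 of the 16 that rose held it, 2 of the 4 that fell and 6 of the 14 not past the threshold. The median GC content of the windows was 66.0% for the members and 59.2% for all symbols. Some genes have more than 1 start in RefSeq, and a match in any of their windows was counted.

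Among the carriers that supply ATP synthesis, 3 of 4 tested members rose, where 29.4% of all genes tested did. SLC25A3, which brings phosphate into the matrix (chr12:98593591-98606379), had the most counts of the family without regard to gene length, with 679, 771 and 658 CPM in the control and 1067, 1035 and 982 CPM in the shPHF19 libraries. All shPHF19 libraries lay above all controls, and the log2 fold change was 0.55 (SE 0.0807, edgeR adjusted p = 9.42e-08). SLC25A5, the ADP/ATP carrier ANT2 (chrX:119468400-119471319), was at 443, 459.8 and 399 CPM in the control and 613, 575 and 567 CPM in the shPHF19 libraries. Its groups were apart as well, with a log2 fold change of 0.43 (SE 0.0808, edgeR adjusted p = 1.06e-05). SLC25A4, the ADP/ATP carrier ANT1 that is typical of heart and muscle, was far lower, at 23.8, 24.9 and 21.3 CPM in the control and 31.4, 30.3 and 33.0 CPM in the shPHF19 libraries. It rose by 0.43 on the log2 scale (SE 0.121, edgeR adjusted p = 0.00186), a call that was lost with library totals (0.23, adjusted p = 0.094). The log2 ratio of SLC25A4 to SLC25A5 counts within a library was -4.22 ± 0.00891 in the control and -4.21 ± 0.0961 in the shPHF19 libraries (SD, n = 3 each; exact permutation test, 2-sided, p = 1.0, where 0.1 is the smallest possible), and the groups overlapped.

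SLC25A6, the ADP/ATP carrier ANT3, was at 11.01, 11.96 and 13.03 CPM in the control and 13.2, 11.9 and 12.3 CPM in the shPHF19 libraries and did not pass the threshold (log2 fold change 0.05, edgeR adjusted p = 0.785). Its level carries a caveat, since it lies in the pseudoautosomal region (chrX:1386152-1392724), which is annotated on X and Y alike. The other 14 protein-coding genes of that region, at the start of X, had a median of 0.532 CPM over the libraries, the highest being CD99 at 10.9 CPM, and 3 were at 0. Whether reads matching both copies were counted was not given in the sources used here. Within a library the log2 ratio of SLC25A5 to SLC25A6 was 5.17 ± 0.210 in the control and 5.55 ± 0.0412 in the shPHF19 libraries (SD, n = 3 each; 2-sided exact permutation test, p = 0.1, which is the lowest value reachable with 3 libraries a group). SLC25A31, the ADP/ATP carrier of germ cells, had no count in any library, which allows a level of up to 0.223 CPM, by counting error only.

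Levels of different genes can be compared only per length. Per kilobase of the principal transcript in GENCODE 29, the control level was 419 ± 35.8 CPM for SLC25A3, 341 ± 24.5 CPM for SLC25A5, 55.7 ± 3.14 CPM for SLC25A39, 42.2 ± 3.55 CPM for SLC25A1 and 39.6 ± 1.25 CPM for SLC25A38 (SD, n = 3 each). The intervals of 1 SD of SLC25A1 and SLC25A38 overlapped, whereas those of the 3 higher carriers did not overlap any other of these 5. In the shPHF19 libraries SLC25A3 stood at 613 ± 25.6 and SLC25A5 at 459 ± 19.1 CPM per kilobase, and SLC25A39 (93.6 ± 10.2) and SLC25A1 (87.3 ± 8.05) could no longer be ordered within their SD. The order depends on the length used, since per kilobase of all annotated exons SLC25A5 was at 289 CPM and SLC25A3 at 79.0 CPM in the controls.

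**Figure D3:**
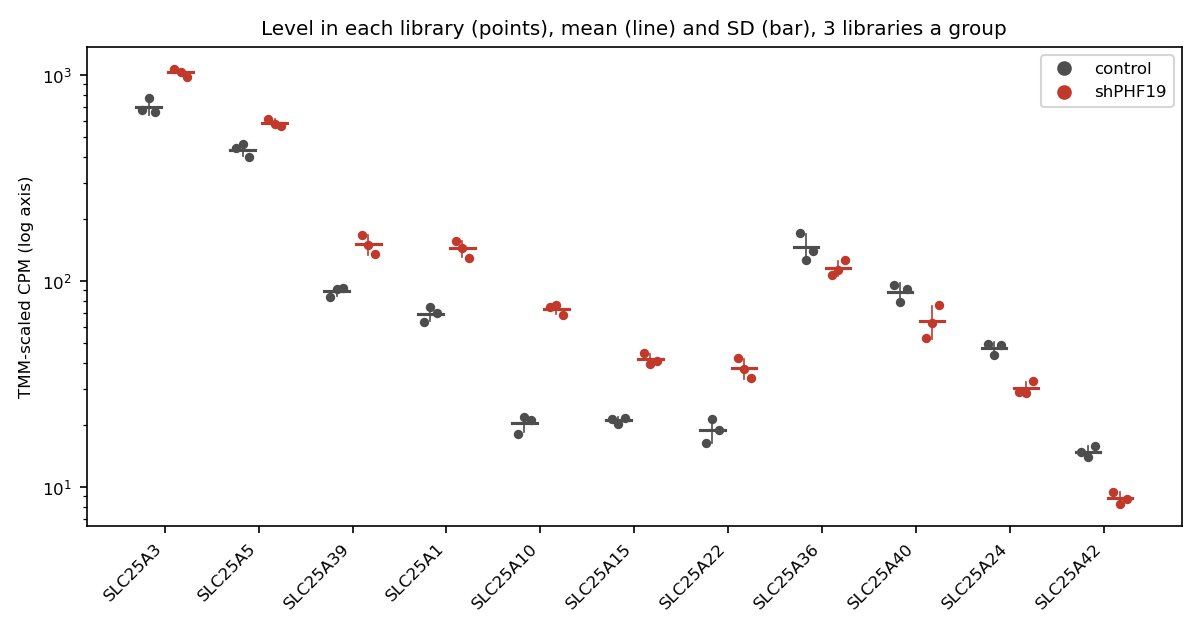
TMM-scaled CPM (log axis) of 11 carriers in each library, with the mean as a line and the SD as a bar over 3 libraries a group. The first 7 carriers lie higher in all shPHF19 libraries and the last 4 lower, with SLC25A10 showing the widest gap and SLC25A36 the narrowest.

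The ATP-Mg/phosphate carriers, which adjust the matrix pool of adenine nucleotides and are regulated by calcium, split by member. SLC25A24 (chr1:108134036-108200849) was at 49.2, 43.6 and 48.8 CPM in the control and 28.9, 28.7 and 32.8 CPM in the shPHF19 libraries. It fell by 0.65 on the log2 scale (SE 0.111, edgeR adjusted p = 2.07e-06), with all shPHF19 libraries below all controls. SLC25A25 was at 22.9, 24.3 and 24.8 CPM in the control and 42.4, 42.5 and 37.1 CPM in the shPHF19 libraries, and rose (log2 fold change 0.76, SE 0.116, edgeR adjusted p = 1.97e-07). SLC25A23 was at 44.8, 50.6 and 47.3 CPM and at 77.1, 64.6 and 60.7 CPM, and rose by 0.50 (SE 0.103, edgeR adjusted p = 4.39e-05). SLC25A24 counts were 1.96 times those of SLC25A25 in the controls and 0.741 times in the shPHF19 libraries, so the order of these carriers' counts was reversed in every library (exact permutation test, 2-sided, p = 0.1, the smallest possible). SLC25A41, the short form that lacks the calcium-binding part, was at 0.870 and 0.524 CPM and did not pass the threshold.

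The 3 tested carriers of carboxylates all rose, where 29.4% of all genes tested did. SLC25A10, which exchanges malate or succinate for phosphate (chr17:81712236-81721016), was at 18.1, 21.9 and 21.2 CPM in the control and 75.0, 76.3 and 68.3 CPM in the shPHF19 libraries. The lowest shPHF19 library thus stood well above the highest control, and SLC25A10 had the largest change of the family, 3.59-fold higher (log2 fold change 1.84, SE 0.11, edgeR adjusted p = 2.01e-19). SLC25A1, which exports citrate to the cytosol (chr22:19175575-19178830), was at 63.5, 75.2 and 69.9 CPM in the control and 156, 145 and 130.0 CPM in the shPHF19 libraries. It was 2.07-fold higher (log2 fold change 1.05, SE 0.0922, edgeR adjusted p = 9.13e-14), again with the groups apart. SLC25A11, the oxoglutarate/malate carrier of the malate-aspartate shuttle, was at 29.7, 38.0 and 33.3 CPM and at 62.4, 57.3 and 51.4 CPM, and rose by 0.76 (SE 0.11, edgeR adjusted p = 7.12e-08). Counts of SLC25A10 were 0.608 times those of SLC25A11 in the controls and 1.29 times in the shPHF19 libraries, below in every control and above in every shPHF19 library (exact permutation test, 2-sided, p = 0.1, the smallest possible). SLC25A21, the oxodicarboxylate carrier, had 1 count in all and was not tested.

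Of the 8 tested amino acid carriers, 5 rose and none fell, where 29.4% of all genes tested rose and 30.9% fell. SLC25A15, the ornithine carrier of the urea cycle (chr13:40789412-40810111), was at 21.4, 20.3 and 21.7 CPM in the control and 44.5, 39.6 and 40.7 CPM in the shPHF19 libraries, 1.97-fold higher (edgeR adjusted p = 6.38e-10). SLC25A22, the main glutamate carrier (chr11:790475-798333), was at 16.4, 21.5 and 18.9 CPM and at 42.2, 37.3 and 33.7 CPM, 1.99-fold higher (edgeR adjusted p = 3.23e-09). Both carriers were apart between the groups. SLC25A18, the second glutamate carrier, was near 1 CPM in both groups (1.35 ± 0.342 and 1.18 ± 0.244 CPM, SD, n = 3 each) and did not pass the threshold.

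The aspartate/glutamate carriers SLC25A13 (citrin) and SLC25A12 (aralar), which complete the malate-aspartate shuttle, were both called. SLC25A13 was at 41.5, 33.8 and 36.5 CPM in the control and 62.0, 61.2 and 58.7 CPM in the shPHF19 libraries, with the groups apart (log2 fold change 0.70, SE 0.105, edgeR adjusted p = 1.34e-07). SLC25A12 was at 35.2, 32.0 and 25.9 CPM and at 32.0, 41.2 and 42.3 CPM, and its groups overlapped because shPHF19 replicate 1 lay within the controls. Its rise of 0.31 (SE 0.122, edgeR adjusted p = 0.0254) lost the call without control replicate 3 (0.20, adjusted p = 0.209), without shPHF19 replicate 2 (0.27, adjusted p = 0.113) and without shPHF19 replicate 3 (0.25, adjusted p = 0.0927). The call was also lost with library totals (adjusted p = 0.468) and upper-quartile factors (adjusted p = 0.133). The ratio of SLC25A12 to SLC25A13 counts was 0.829 and 0.630, and its library values overlapped (exact permutation test, 2-sided, p = 0.2).

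SLC25A44, a carrier of branched-chain amino acids, was at 51.2, 52.1 and 55.6 CPM in the control and 66.8, 63.4 and 59.6 CPM in the shPHF19 libraries, and rose by 0.26 (SE 0.0985, edgeR adjusted p = 0.0227). Its groups were apart, but the call was lost with library totals (adjusted p = 0.676), with upper-quartile factors (adjusted p = 0.178), with a replicate block (adjusted p = 0.0647), and without control replicate 1 (adjusted p = 0.0638), shPHF19 replicate 1 (adjusted p = 0.0679) or shPHF19 replicate 2 (adjusted p = 0.0706). SLC25A38, the glycine carrier that feeds haem synthesis, was at 85.1 ± 2.69 and 83.5 ± 4.84 CPM (SD, n = 3 each; log2 fold change -0.03, 95% interval -0.21 to 0.16). SLC25A29, a carrier of basic amino acids, was at 28.3 ± 2.43 and 27.9 ± 1.34 CPM (log2 fold change -0.02, 95% interval -0.26 to 0.22). SLC25A2, the intronless ornithine carrier, had 4 counts in all and was not tested.

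Carriers tied to acyl groups and coenzyme A did not move together. SLC25A42, which takes coenzyme A into the matrix (chr19:19063999-19112888), was at 14.8, 14.0 and 15.8 CPM in the control and 9.50, 8.29 and 8.74 CPM in the shPHF19 libraries. It fell by 0.75 on the log2 scale (SE 0.161, edgeR adjusted p = 8.37e-05), with the groups apart. SLC25A16, which is also linked to coenzyme A, was at 15.0 ± 1.23 and 14.3 ± 1.10 CPM (SD, n = 3 each) and did not pass the threshold. SLC25A17, the peroxisomal carrier of coenzyme A and other cofactors, rose from 20.5 ± 0.695 to 34.4 ± 2.95 CPM (SD, n = 3 each; log2 fold change 0.74, edgeR adjusted p = 8.47e-07). SLC25A20, which exchanges carnitine for acylcarnitines in fatty acid oxidation, was at 43.2, 44.7 and 38.6 CPM in the control and 35.9, 38.0 and 37.7 CPM in the shPHF19 libraries. All 3 shPHF19 libraries lay below the controls, but the log2 fold change of -0.18 did not pass the threshold (edgeR adjusted p = 0.143), whereas it did with upper-quartile factors (adjusted p = 0.0207) and library totals (adjusted p = 0.00213).

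Among carriers of vitamins, nucleotides and methyl donors, 3 of 6 tested members rose and 1 fell, against 29.4% and 30.9% of all genes tested. SLC25A32, the folate and FAD carrier, rose from 41.9 ± 3.71 to 68.4 ± 5.39 CPM (SD, n = 3 each; log2 fold change 0.71, edgeR adjusted p = 7.22e-08). SLC25A26, which imports S-adenosylmethionine, was at 20.8 ± 0.695 and 24.5 ± 2.18 CPM (SD, n = 3 each), with all shPHF19 libraries above the controls, but did not pass the threshold (log2 fold change 0.24, edgeR adjusted p = 0.107). SLC25A51, the NAD carrier, was at 22.6 ± 2.28 and 21.5 ± 0.769 CPM (SD, n = 3 each) and did not pass it either. Its close copy SLC25A52 had 1 count in all.

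The pyrimidine nucleotide carriers, whose upstream windows are shown above, differed in direction. SLC25A33 was at 37.8, 36.0 and 37.9 CPM in the control and 51.3, 59.5 and 56.7 CPM in the shPHF19 libraries, and rose by 0.58 (SE 0.104, edgeR adjusted p = 4.40e-06). SLC25A36 was the more abundant by counts, at 172, 126 and 140 CPM in the control and 106, 113 and 126 CPM in the shPHF19 libraries. It fell by 0.34 (SE 0.0944, edgeR adjusted p = 0.00187), but its groups were barely apart, with a lowest control of 126.06 CPM and a highest shPHF19 library of 125.85 CPM. Without control replicate 1 the fall was not past the threshold (-0.20, adjusted p = 0.0555). The ratio of SLC25A33 to SLC25A36 counts was 0.258 in the controls and 0.485 in the shPHF19 libraries, higher in every shPHF19 library (exact permutation test, 2-sided, p = 0.1, the smallest possible).

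The related carriers SLC25A39 and SLC25A40, both tied to import of glutathione, also moved in opposite directions. SLC25A39 (chr17:44319625-44324870) was at 83.6, 91.9 and 92.7 CPM in the control and 168, 149 and 135 CPM in the shPHF19 libraries, a rise of 0.75 on the log2 scale (SE 0.0901, edgeR adjusted p = 7.55e-10). SLC25A40 (chr7:87833568-87876357) was at 95.7, 79.3 and 91.2 CPM and at 53.1, 62.2 and 76.2 CPM, a fall of -0.47 (SE 0.104, edgeR adjusted p = 1.16e-04). Both genes were apart between the groups. Their counts were at a ratio of 1.01 in the controls and 2.37 in the shPHF19 libraries. The log2 ratio was -0.20, 0.21 and 0.02 in the control and 1.66, 1.26 and 0.82 in the shPHF19 libraries, every shPHF19 value above every control but with a wide spread among them (exact permutation test, 2-sided, p = 0.1, the smallest possible).

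The mitoferrins, which carry iron into the matrix, showed a smaller difference. SLC25A37 (mitoferrin-1), the form of red cell precursors, was at 42.2, 43.2 and 46.0 CPM in the control and 35.2, 34.5 and 36.8 CPM in the shPHF19 libraries. It fell by 0.30 (SE 0.107, edgeR adjusted p = 0.0136), a call that was lost without control replicate 3 (-0.26, adjusted p = 0.0763) or shPHF19 replicate 2 (-0.28, adjusted p = 0.076). SLC25A28 (mitoferrin-2), the form found in most tissues, was at 18.4, 22.0 and 18.6 CPM and at 18.9, 18.5 and 20.5 CPM, with overlapping groups (log2 fold change -0.03, edgeR adjusted p = 0.862). The ratio of SLC25A28 to SLC25A37 counts was 0.448 and 0.543, higher in every shPHF19 library (exact permutation test, 2-sided, p = 0.1, the smallest possible).

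**Figure D4:**
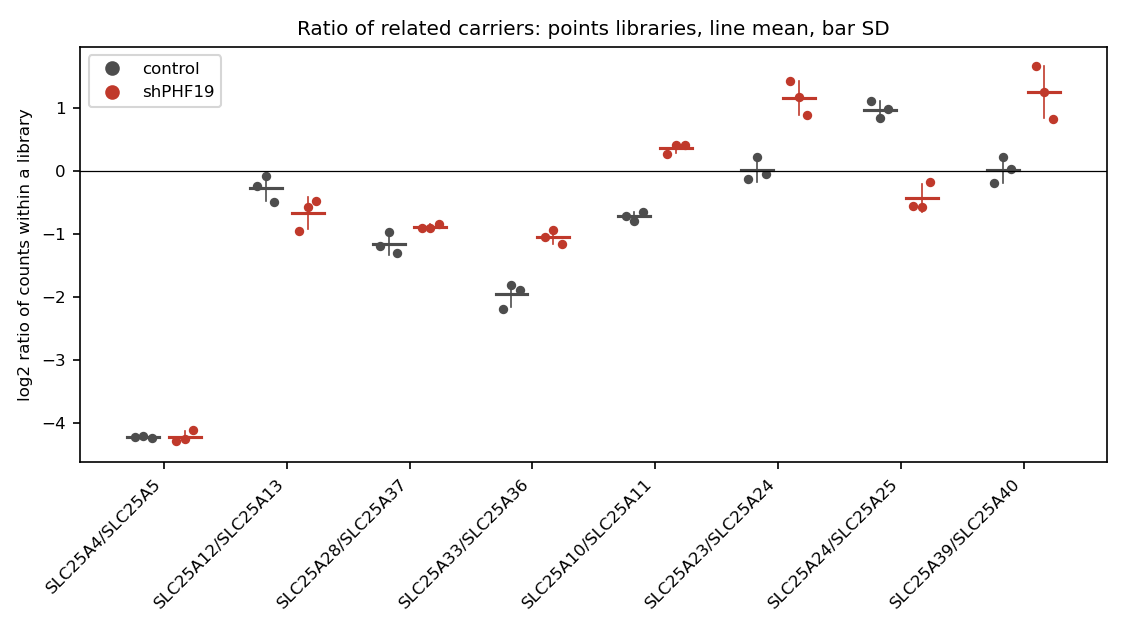
Log2 ratio of counts of related carriers within each library (points), with mean (line) and SD (bar) over 3 libraries a group. The ratios of SLC25A24 to SLC25A25 and of SLC25A10 to SLC25A11 change sign between the groups, whereas that of SLC25A4 to SLC25A5 lies at -4.22 and -4.21.

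Ratios within a library need no scaling factor, and 17 of the 19 pairs listed for this comparison had both genes tested. In 12 of them the ratio did not overlap between the groups. Of single genes tested 63.5% did not overlap in CPM, but that is another measure, and the share over pairs of other genes was not computed. Some pairs also share a gene, such as SLC25A5 or SLC25A24. Each of the 12 had p = 0.1 in the exact permutation test, which is 0.142 after Benjamini-Hochberg adjustment over the 17 pairs, so no pair could pass 0.05 in this design.

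No member of the less well placed groups was called, where 60.2% of all genes tested were. The uncoupling protein-like carriers SLC25A14 and SLC25A30 were at 9.97 ± 0.878 and 35.0 ± 4.32 CPM in the control and at 10.3 ± 0.304 and 38.4 ± 5.53 CPM in the shPHF19 libraries (SD, n = 3 each), and SLC25A27 had no count. SLC25A46, a protein of the outer membrane that acts in mitochondrial shape, was at 53.9 ± 5.62 and 50.9 ± 3.16 CPM, and SLC25A43 at 51.0 ± 3.12 and 51.4 ± 5.63 CPM (SD, n = 3 each). SLC25A34, SLC25A45 and SLC25A53 had log2 fold changes of -0.62, -0.22 and 0.14 at mean levels below 5 CPM, with 95% intervals that all include 0. SLC25A35 was at 5.60, 5.83 and 5.38 CPM in the control and 10.5, 6.03 and 5.51 CPM in the shPHF19 libraries, where 1 library stood apart. It did not pass the threshold (log2 fold change 0.38, edgeR adjusted p = 0.129), but did without shPHF19 replicate 3 (0.55, adjusted p = 0.0281). SLC25A47 had 2 counts and SLC25A48 had 0, so neither was tested.

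Libraries of a group differed in a way that recurred across members. Of the 18 members that rose, 11 had their highest shPHF19 level in replicate 1 and 13 their lowest in replicate 3, and of the 5 that fell, 4 had their highest shPHF19 level in replicate 3. PHF19 itself was at 41.1, 36.9 and 33.0 CPM in these libraries. In the controls, 10 of the 18 were highest in replicate 2. These counts are given as a description, since the members share their libraries. The matching shares over all genes tested were not computed, and a link to the level of PHF19 was not tested.

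Some members share exonic bases with genes on the opposite strand, and the strand setting of the counting was not given in the sources used here. This concerned 10 tested members with 142 to 1293 shared bases in GENCODE 29, of which 7 were called, where 60.2% of all genes tested were called. Of the partners, RNF167 (beside SLC25A11) had a log2 fold change of -0.25, DBF4 (beside SLC25A40) of 0.22, METAP1D (beside SLC25A12) of 0.19, DCAF13 (beside SLC25A32) of 0.41, SLC25A25-AS1 of 0.45 and PANO1 (beside SLC25A22) of 0.23. RNF167, DCAF13 and SLC25A25-AS1 passed the threshold, whereas DBF4, METAP1D and PANO1 did not. Changes of the other partners, such as SLC25A5-AS1 (beside SLC25A5) and RANGRF (beside SLC25A35), are not given. The part of shared reads in the members' values was not tested. Genes with many processed copies in the annotation were SLC25A5 with 9, SLC25A6 with 6 and SLC25A1 and SLC25A15 with 5 each. Their values may depend on how reads shared with these copies were treated, which was not tested.

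The authors' deposited table of their own comparison lists 29.5% of all genes with a count and 19 of the members, 16 as higher and 3 (SLC25A24, SLC25A40 and SLC25A42) as lower. All 19 were called in the same direction here, and their log2 fold changes in the authors' deposited table differed from those given above by at most 0.0665. The 4 members called here that it does not list are SLC25A12, SLC25A36, SLC25A37 and SLC25A44, whose absolute changes were the 4 smallest of the 23 called. No entry of the authors' deposited table has an adjusted p above 0.00993 or an absolute log2 fold change below 0.322.

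Carriers outside the SLC25A numbering and other transport proteins of mitochondria were read from a list of 29 genes, of which 27 were tested, 14 rose and 3 fell, with a median log2 fold change of 0.38. The share called was 63.0%, near the 60.2% of all genes tested, with 51.9% higher and 11.1% lower against 29.4% and 30.9%. UCP2, an SLC25 member by structure that moves C4 metabolites out of the matrix, was at 114, 131 and 117 CPM in the control and rose to 249.7 ± 26.3 CPM (SD, n = 3; log2 fold change 1.05, edgeR adjusted p = 1.93e-14). MTCH1 and MTCH2, carrier-like proteins of the outer membrane that insert other proteins, rose by 0.78 and 0.85 (edgeR adjusted p = 7.47e-11 and 4.12e-12). LETM1, an inner membrane protein of potassium and calcium exchange, rose by 1.31 and VDAC1, a pore protein of the outer membrane, by 1.07 (edgeR adjusted p = 4.85e-17 and 7.20e-16). MPC1 and MPC2, which form the mitochondrial pyruvate carrier, had log2 fold changes of -0.003 and -0.06 (edgeR adjusted p = 0.985 and 0.611). SFXN3, SFXN5 and MICU2 were the 3 that fell, by 1.54, 1.61 and 0.46, and were picked by name from their values.

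Carriers reach the inner membrane through the TIM22 route, in which small TIM chaperones ferry them across the intermembrane space. Of its 10 genes, all tested, 6 rose and 1 fell, with a median of 0.50, so 70.0% were called against 60.2% of all genes tested. AGK, a subunit of the TIM22 complex, rose by 0.95 and the chaperones TIMM10, TIMM13 and TIMM8B by 0.91, 0.85 and 0.78 (edgeR adjusted p from 3.41e-09 down to 8.88e-11). TIMM9, the partner of TIMM10 in the main chaperone, went the other way and fell by 0.72 (edgeR adjusted p = 2.07e-06).

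Among 25 enzymes that act on the substrates of the carriers, 10 rose and 5 fell, with a median of 0.13, and the share called, 60.0%, was close to that of all genes tested (60.2%). ACLY, which cleaves the citrate that SLC25A1 exports, rose from 295 ± 10.1 to 922 ± 51.1 CPM (SD, n = 3 each; log2 fold change 1.64, edgeR adjusted p = 1.98e-22). MDH2, the matrix malate dehydrogenase, rose by 1.04, and MAT2A, which makes S-adenosylmethionine, by 0.88 (edgeR adjusted p = 3.50e-15 and 2.51e-13). GOT1, the cytosolic aspartate aminotransferase of the malate-aspartate shuttle, fell by 0.59 (edgeR adjusted p = 5.45e-07). The other 4 that fell, picked by name from their values, were ME3, ISCU, MTHFD2 and NADK2, by 1.32, 0.39, 0.31 and 0.28.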

How the data were processed

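The submitters' processing notes name HTSeq 0.11.2, HISAT2 2.1.0 and hg38, and annotation and strand setting were not given in the sources used here. Per gene symbol the authors deposited whole-number counts (26410 rows, 6991 with no count), not normalized. The authors also deposited a table of 5740 genes with a mean normalized signal (baseMean), log2 fold changes, a standard error score and p-values. It was used for 1 comparison only.

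The test was edgeR 4.0.16 (R 4.3.3) on the counts: filterByExpr (13014 genes kept), TMM scaling, group as the only term, robust glmQLFit and glmQLFTest, with Benjamini-Hochberg adjustment over all genes tested and a threshold of 0.05. The biological coefficient of variation was 0.0915. Standard errors are the log2 change over the square root of F. Groups and replicate numbers came from sample titles. Every pair of replicates differed beyond sampling noise (chi-square per degree of freedom 4.63 to 11.7) and was counted as separate. Ratios of related carriers used counts plus 0.5 and exact 2-sided permutation tests. Alternatives were DESeq2 1.42.0, limma 3.58.1 (voom), other scalings and filters, a replicate block and leaving out each library. The fit was tested on simulated counts. Positions, exon lengths and principal transcripts came from GENCODE 29 (GRCh38), and upstream windows from RefSeq.

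The members, pairs and gene lists were chosen with earlier results of these data known. The text names PHF19, the members, and of the lists up to 5 genes with the smallest adjusted p plus UCP2, MPC1, MPC2, MTCH1 and MTCH2. Values in every library are given for members called with an absolute log2 change of at least 0.8, the 5 with the most CPM and pairs described. Those of SLC25A20, SLC25A35, SLC25A42 and SLC25A44 were added after their values were seen. Some results that these rules cover are not reported here.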

Additional observations from a re-analysis of the deposited data

How the results depend on the processing

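Of the 23 members called, 18 kept their call in all 13 alternatives, 5 lost it in at least 1 (SLC25A4, SLC25A12, SLC25A36, SLC25A37 and SLC25A44) and 0 changed sign, while 4 uncalled members gained a call in at least 1 (SLC25A20, SLC25A35, SLC25A38 and SLC25A46). With library totals only, 8 members were lower in place of 5, as were 5 in place of 3 of the other transport genes and 2 in place of 1 of the TIM22 genes, 6 in place of 10 enzymes were higher, the median of the members was -0.0654, and their summed CPM was 2667 and 3076. Under that setting SLC25A6, SLC25A14, SLC25A30, SLC25A43 and SLC25A53, none of them called, had log2 fold changes of -0.152, -0.151, -0.0712, -0.193 and -0.0654, and with upper-quartile factors SLC25A6, SLC25A14 and SLC25A43 had -0.0488, -0.0475 and -0.0905. With every gene of at least 1 count tested, the median over 45 members was 0.26, as more members entered. The cause of the other differences was not tested. The median of all genes under each alternative was added after seeing the data.

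Leaving out 1 library at a time changed the sign of uncalled members whose values lay near 0, with ranges of -0.00492 to 0.119 for SLC25A6, -0.0043 to 0.0976 for SLC25A14, -0.355 to 0.00255 for SLC25A18, -0.0767 to 0.0705 for SLC25A28, -0.082 to 0.0513 for SLC25A29, -0.0691 to 0.00734 for SLC25A38, -0.0687 to 0.0877 for SLC25A43, -0.358 to 0.0255 for SLC25A45, -0.131 to 0.00438 for SLC25A46, -0.13 to 0.00627 for SLC25A51 and -0.0537 to 0.605 for SLC25A53. The difference in log2 ratio ranged from -0.0498 to 0.0412 for SLC25A4/SLC25A5, from -0.158 to 0.0266 for SLC25A14/SLC25A30 and from -0.0118 to 0.365 for SLC25A29/SLC25A45. Libraries with the same replicate number did not deviate together (correlations -0.164, -0.00655 and -0.0537), so the numbers are taken as names. With a replicate block 17 members were higher and 5 lower, SLC25A44 being the 1 that lost its call (adjusted p = 0.0647), and over all genes 3555 were higher and 3752 lower.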
